A study of Mus musculus with 4 samples.

Results

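The integrated stress response and amino acid synthesis were followed through 10 genes in bone marrow NK cells: Atf4, Atf5, Ddit3, Trib3, Ppp1r15a, Sesn2, Chac1, Asns, Psat1 and Phgdh. The genes were chosen by symbol, each matched 1 of 37310 gene identifiers in the files, and 9 of the 10 had enough counts to be tested. NK cells, lymphocytes of the innate system that lyse virus-infected and tumour cells, were sorted here as CD3e-, NK1.1+ and CD49b+ cells from C57BL/6 mice 6 to 8 weeks old. The controls (Ctrl, 2 libraries) were littermates whose alleles are not given further. The other mice (dKO, 2 libraries) were Gabpb1l-/-Gabpb2-/-, a genotype that takes away Gabpb2 and the long isoform of Gabpb1, the partners that join Gabpa in the tetrameric form of the transcription factor GABP. The labels describe the deficiency as one of the mice and name no Cre or cell type in which it was made, and whether other cells carry it is not given.

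In the integrated stress response, kinases that sense amino acid shortage, heme shortage, viral RNA or misfolded protein phosphorylate the translation factor eIF2. General translation then slows, while the mRNA of the transcription factor Atf4 is translated more. Atf4 protein switches on genes for amino acid uptake and synthesis, among them Asns, Psat1 and Phgdh, and genes that end or modify the response. Proliferating lymphocytes draw on the same serine and asparagine enzymes. Much of the control of Atf4 is exerted on translation, which RNA counts do not measure.

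Gene counts were 30233870 to 34724516 per library, and each library had a level for each gene as CPM, the count scaled to a fixed library size. Ctrl 1 stood apart with 15921 genes detected, against 18206 in Ctrl 2, 19450 in dKO 1 and 19220 in dKO 2. The share of reads given to no gene was 18.1% and 21.5% in Ctrl and 23.8% and 24.3% in dKO, so it was higher in both dKO libraries, and its part in the results was not tested. As a check of the labels, the counts of Gabpb2 were 1244 and 1009 in Ctrl, and only 85 and 86 in dKO. For Gabpb1 the effective length in the authors' deposited tables, an average over its transcripts weighted by abundance, was 1105 and 1408 bases in Ctrl and 885 and 693 bases in dKO. Xist had 6066 and 6430 counts in Ctrl against 2 and 9 in dKO, and the Y-linked Ddx3y 0 and 0 against 8933 and 6757. The labels give no sex, so the genotype and this difference cannot be told apart. The NK markers were all detected, with a summed level over 12 markers of 18424 to 18651 CPM for Ctrl and 15312 to 15391 CPM for dKO. Among markers of other cells, Cd3e, the T cell gene of the gate itself, fell from 47.5 and 52.5 CPM in Ctrl to 8.90 and 12.2 CPM in dKO, a log2 fold change of -2.24 (SE 0.24, edgeR adjusted p = 0.00790). In sorted cells measured in bulk, fewer cells of a type and less RNA per cell cannot be told apart.

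Atf4 binds composite sites for a C/EBP and an ATF factor, and GABP binds Ets sites, so the start regions of the 10 genes were searched for the core of each. RefSeq promoters of build GRCm38.p6, from 250 bases before to 50 bases after the start, were found for all 10 genes. The composite core TGATGNAA was searched on both strands and was present for 3 genes, against 3.97% of all 32851 promoters. The Ets core CCGGAAG, also on both strands, was present for 2 genes, against 8.86% of all promoters. A gene was counted if any of its promoters matched, while the shares are over single promoters, so these are unlike measures. The windows with the core in capitals, read along the gene, are shown because they place the known Asns element and the Ets letters near Ddit3 and Psat1 beside the RNA values.
Asns, chr6:7693210-7693262, minus strand, core 23 bases before the start: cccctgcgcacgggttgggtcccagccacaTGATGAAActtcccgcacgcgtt
Chac1, chr2:119351019-119351071, plus strand, core on the other strand, 193 bases before the start: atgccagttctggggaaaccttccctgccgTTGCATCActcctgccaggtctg
Trib3, chr2:152344029-152344056, minus strand, core on the other strand, at base 15 of the transcript: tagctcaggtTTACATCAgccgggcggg
Ddit3, chr10:127290564-127290615, plus strand, Ets core on the other strand, 199 bases before the start: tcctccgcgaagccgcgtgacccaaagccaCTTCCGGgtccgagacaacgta
Psat1, chr19:15924594-15924620, minus strand, Ets core on the other strand, at base 13 from 1 of its 2 RefSeq starts: ggcacgtttcCTTCCGGggagcgcagg
A match is a string of letters and not a measured binding site. Of these 5 genes none passed the test between the groups described next, and Chac1 was too low to be tested.

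No gene of the 10 passed the test between dKO and Ctrl, in either direction (edgeR adjusted p under 0.05). Over all tested genes 0.611% passed, 85 of 13904. At an unadjusted p under 0.05 there were 3 of the 9 tested genes, Ppp1r15a, Psat1 and Sesn2, where 10.6% of all tested genes reached that level (5.24% higher and 5.34% lower in dKO). Both dKO libraries lay outside the range of both Ctrl libraries for 4 of the 9, against 41.6% of all tested genes. Ppp1r15a was higher in both dKO libraries, and Trib3, Sesn2 and Psat1 were lower in both. The median log2 fold change of the 9 was -0.35 and that of all tested genes 0.01.

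**Figure D1:**
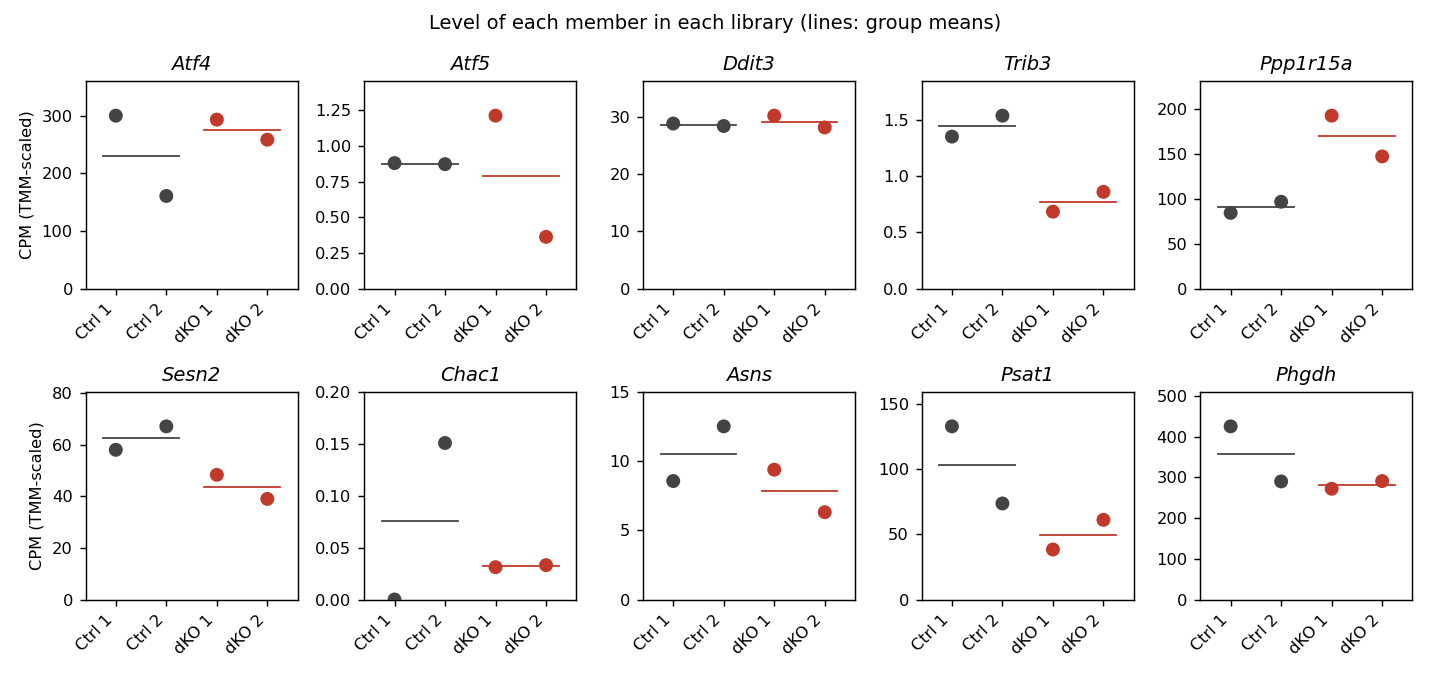
CPM of each of the 10 genes in the 4 libraries (points; Ctrl grey, dKO red) with the mean of each group (lines), on axes that start at 0. Ppp1r15a lies at 147 to 193 CPM in dKO and at 84.6 to 97.0 CPM in Ctrl, while Ddit3 lies between 28.1 and 30.2 CPM in all 4 libraries.

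The genes spanned a wide range of levels. By length-scaled TPM, which allows genes to be compared, the means over the 4 libraries were 307 TPM for Phgdh, 260.3 TPM for Atf4, 91.8 TPM for Ppp1r15a, 88.3 TPM for Ddit3 and 60.0 TPM for Psat1. Below these stood Sesn2 at 25.9 TPM, Asns at 8.49 TPM, Trib3 at 1.03 TPM, Atf5 at 0.818 TPM and Chac1 at 0.0900 TPM. Neighbours in this order overlapped over libraries for Phgdh and Atf4, for Ppp1r15a, Ddit3 and Psat1, and for Trib3 and Atf5. The lowest Psat1 library (32.0 TPM) was also below the highest Sesn2 library (33.1 TPM). Asns, at 6.10 to 11.4 TPM, overlapped neither of its neighbours. The transcription factor and the first enzyme of serine synthesis were thus the most abundant of the set, and Chac1 was near absent.

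Among the transcription factors, Atf4 did not differ beyond the spread of its own controls. Atf4 (chr15:80255184-80257541, GRCm38) stood at 300.3 CPM in Ctrl 1, 161 CPM in Ctrl 2, 293 CPM in dKO 1 and 259 CPM in dKO 2. Ctrl 2 was low and the other libraries were close to each other, so the groups overlapped. Mean levels were 231 ± 98.5 CPM (Ctrl) and 276 ± 24.6 CPM (dKO; SD, n = 2). The log2 fold change was 0.26 (SE 0.27, 95% interval -0.36 to 0.88, edgeR adjusted p = 0.817). It was 0.77 without Ctrl replicate 1 and -0.12 without Ctrl replicate 2, so its direction rested on 1 library. The ratio of the Ctrl libraries was 1.86, and 17.7% of all tested genes had a larger one.

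Ddit3, which encodes CHOP, a factor that can turn a long stress response toward cell death, was the steadiest of the set. It had 28.8 and 28.4 CPM in Ctrl against 30.2 and 28.1 CPM in dKO. The log2 fold change was 0.03 (SE 0.20, edgeR adjusted p = 0.985), with a 95% interval from 0.742-fold to 1.40-fold, so larger changes than these lie outside it. Ddit3 (chr10:127290774-127296288) overlaps Mars and 2 further annotated genes in GENCODE M21, and the strand setting of the counting is not given in the sources used here. Atf5, a relative of Atf4 that is also induced by it and serves mitochondrial stress, was nearly silent. Atf5 (chr7:44812256-44816658) had 30 and 29 counts in Ctrl and 39 and 11 in dKO. At this depth the 95% interval ran from 0.218-fold to 3.73-fold, so even large differences were not detectable.

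Of the genes that limit the response, Ppp1r15a stood out. It encodes GADD34, the regulatory subunit that brings a phosphatase to eIF2 and restarts translation. Ppp1r15a (chr7:45522916-45526268) had 84.6 and 97.0 CPM in Ctrl against 193 and 147 CPM in dKO. Both dKO libraries were above both Ctrl libraries, by a gap wider than the difference within either group. The means were 90.8 ± 8.75 and 170.2 ± 32.1 CPM (SD, n = 2), a 1.87-fold difference (log2 fold change 0.91, SE 0.19, 95% interval 0.48 to 1.34). It missed the threshold with an edgeR adjusted p = 0.101. It passed with DESeq2 (adjusted p = 0.00209, where 2.84% of all genes passed), without the count filter (edgeR adjusted p = 0.000205, where 2.4% passed) and with a stricter filter (edgeR adjusted p = 0.0498), and in no other alternative. The log2 fold change stayed between 0.70 and 1.09 over the 13 alternatives.

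Ppp1r15a is also induced early by other stimuli and by handling of cells, and genes of that kind differed in the same libraries. Among 19 tested dissociation and immediate early genes, 5 rose, none fell and 14 did not pass, with a median log2 fold change of 0.17. Of all tested genes 0.316% rose. The list median was -0.04 without dKO replicate 1 and 0.38 without dKO replicate 2. Fos, a subunit of the AP-1 factor, rose from 212 and 197 CPM in Ctrl to 462 and 517 CPM in dKO, a log2 fold change of 1.26 (SE 0.15, edgeR adjusted p = 0.0144). Fosb (2.95, SE 0.32), the phosphatase gene Dusp2 (2.13, SE 0.31), Klf4 (2.22, SE 0.35) and Jun (1.10, SE 0.17) also rose, with edgeR adjusted p between 0.00790 and 0.0386. Egr1, named after its values were seen, had 106 and 84.7 CPM in Ctrl against 63.8 and 54.6 CPM in dKO, and the heat shock gene Hspa1a was below 1 CPM in each library. This group was already known from earlier results of these data. Its part in the Ppp1r15a difference was not tested. With dKO replicate 1 left out only 2 of the 5 were called, and with dKO replicate 2 left out 3 were.

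Trib3, a pseudokinase that holds back Atf4 and CHOP, had 46 and 51 counts in Ctrl and 22 and 26 in dKO. These are 1.35 and 1.54 CPM against 0.685 and 0.860 CPM, so dKO was lower in both libraries at a level near the limit of the test. The log2 fold change was -0.90 (SE 0.69, 95% interval -2.49 to 0.69, edgeR adjusted p = 0.734). Sesn2, a stress-induced sensor that restrains mTORC1 when leucine is short, had 58.1 and 67.2 CPM in Ctrl against 48.4 and 39.0 CPM in dKO. The groups did not overlap, and the log2 fold change was -0.52 (SE 0.20, 95% interval -0.97 to -0.07, edgeR adjusted p = 0.406). It kept its sign in all 13 alternatives and passed in none. Sesn2 lies at chr4:132492032-132510501 and overlaps an antisense-annotated gene. Its relatives Sesn1 (377 and 414 CPM for Ctrl, 393 and 457 CPM for dKO) and Sesn3 (7.46 and 7.83 CPM in Ctrl, 11.4 and 11.7 CPM in dKO) did not pass either.

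Chac1, which degrades glutathione and is among the strongest Atf4 and CHOP targets in stressed cells, had 0 and 5 counts in Ctrl and 1 and 1 in dKO. It was too low for a test. For Ctrl 1 a count of 0 allows up to 0.0881 CPM, counting error only. Some other stress targets, named after their values were seen, were also low in this sort, while others such as Txnip were abundant. Fgf21 and Adm2 had 0 counts in each of the 4 libraries, Vldlr had at most 0.0301 CPM, and Gdf15 at most 0.529 CPM. The cystine transporter gene Slc7a11 lay between 0.0294 and 0.436 CPM.

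**Figure D2:**
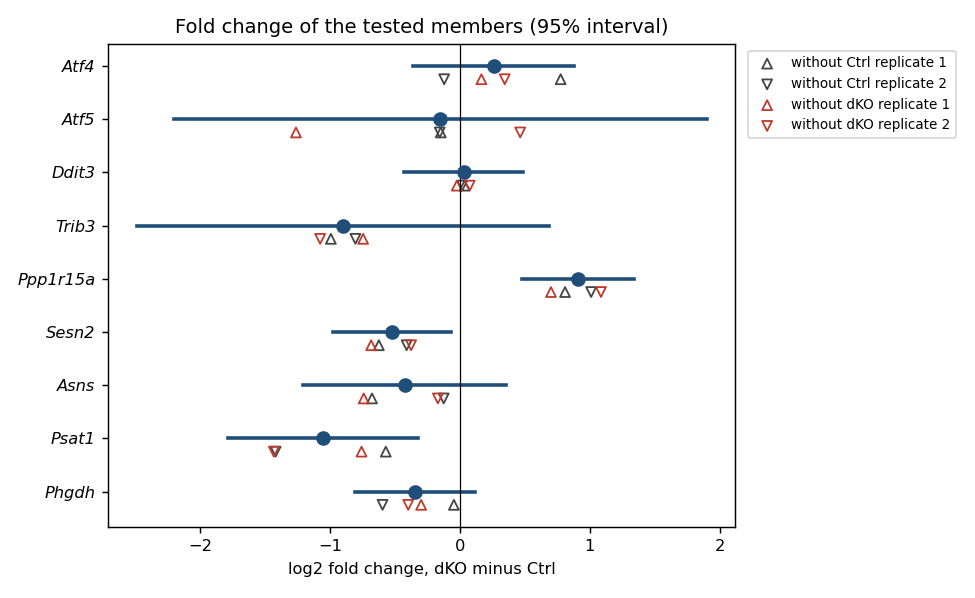
Log2 fold change (dKO minus Ctrl) of the 9 tested genes with its 95% interval (blue) and the value with each library left out (triangles). The intervals of Ppp1r15a (0.48 to 1.34), Sesn2 (-0.97 to -0.07) and Psat1 (-1.79 to -0.32) do not include 0, and those triangles stay on 1 side of it.

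For the enzymes of amino acid synthesis, the log2 fold changes of all 3 were negative and none passed. Asns, which makes asparagine, had 8.58 and 12.5 CPM in Ctrl against 9.40 and 6.32 CPM in dKO. The groups overlapped, with a log2 fold change of -0.42 (SE 0.34, edgeR adjusted p = 0.749). Phgdh, the first enzyme of serine synthesis, had 425 CPM in Ctrl 1, 289.9 CPM in Ctrl 2, 272 CPM in dKO 1 and 291 CPM in dKO 2. Ctrl 1 was high and the other libraries were alike. Its log2 fold change was -0.35 (SE 0.20, edgeR adjusted p = 0.623) and -0.05 without Ctrl replicate 1. Phgdh (chr3:98313170-98339990) lies 3.10 Mb from the deleted gene Gabpb2. Chac1 and Trib3 also share a chromosome with a targeted gene, at 7.27 Mb and 25.7 Mb from Gabpb1.

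Psat1, the enzyme after Phgdh in the serine route, had the most negative fold change of the 9 tested genes. Its levels were 133 CPM in Ctrl 1, 73.6 CPM in Ctrl 2, 38.3 CPM in dKO 1 and 61.1 CPM in dKO 2. Both dKO libraries were below both Ctrl libraries, but the gap from dKO 2 to Ctrl 2 was smaller than the difference within either group. The means were 103 ± 41.8 and 49.7 ± 16.1 CPM (SD, n = 2), a 2.08-fold difference. The log2 fold change was -1.05 (SE 0.32, 95% interval -1.79 to -0.32, edgeR adjusted p = 0.269). It passed with DESeq2 (adjusted p = 0.0186), without the count filter (edgeR adjusted p = 2.64e-05) and without Ctrl replicate 2 (edgeR adjusted p = 0.0475). Without Ctrl replicate 1 it was -0.57 (edgeR adjusted p = 0.615). Psat1 (chr19:15904678-15947337) overlaps a processed pseudogene, and its ratio of whole-number to RSEM count in Ctrl 1 (2.01) was near the median of 2.05 over genes.

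Elsewhere in the serine and one-carbon route no gene passed. Among 16 tested genes of a list of 20 that leaves out the 10 genes above, none was called, 14 had a negative log2 fold change and the median was -0.20. The median was -0.09 without dKO replicate 1 and -0.31 without dKO replicate 2. At an unadjusted p under 0.05 there were 2 of the 16, Mthfd2 and Shmt1, both lower, where 5.34% of all tested genes were lower at that level. Mthfd2, the mitochondrial folate enzyme, had 38.4 and 23.2 CPM in Ctrl against 10.4 and 13.9 CPM in dKO, a log2 fold change of -1.34 (SE 0.30, edgeR adjusted p = 0.137). Shmt1, which splits serine into glycine and a one-carbon unit in the cytosol, had 36.9 and 15.7 CPM in Ctrl against 8.56 and 12.9 CPM in dKO (-1.29, SE 0.41, edgeR adjusted p = 0.301). Its mitochondrial relative Shmt2 had -0.36 (SE 0.16, edgeR adjusted p = 0.482). Psph, the last step of serine synthesis, had 33.5 and 26.4 CPM in Ctrl against 26.8 and 30.3 CPM in dKO, with overlap. Aldh1l2, Pycr1, Cbs and Cth were too low for a test. Ctrl 1 was the highest library for 9 of the 16, against 27.2% of all tested genes. Mthfd2 and Shmt1 passed with DESeq2, where 2.84% of all genes passed, and without the count filter, where 2.4% passed. Without overlap 6 of the 16 were lower and 1 was higher, against 19.9% and 21.7% of all tested genes. The higher gene was Gpt2, named after its values were seen. It had 0 and 48 counts in Ctrl and 68 and 112 in dKO (2.01, SE 1.28, edgeR adjusted p = 0.662).

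**Figure D3:**
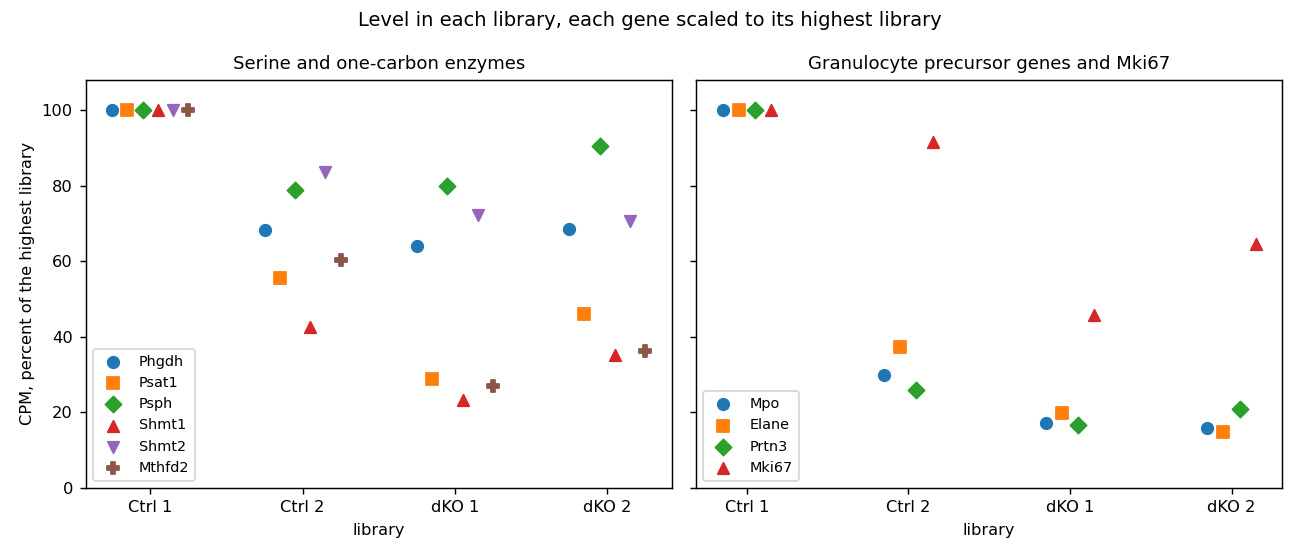
CPM of serine and one-carbon enzymes (left) and of granulocyte precursor genes with the proliferation gene Mki67 (right) in each library, as percent of the gene's highest library. The granulocyte genes are the 3 of 10 markers with the smallest p, Shmt1, Shmt2 and Mthfd2 were taken from the serine list by the same rule, and Psph and Mki67 were added with their values known. Of the whole lists, 6 of the 10 markers and 7 of the 16 serine-route genes peak in a library other than Ctrl 1. All genes shown are highest in Ctrl 1, Psat1, Shmt1, Shmt2 and Mthfd2 are lower in both dKO libraries than in Ctrl 2, and Phgdh and Psph are not.

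Of 10 markers of granulocytes and their precursors, the 3 with the smallest p were lower in both dKO libraries and highest in Ctrl 1. Mpo had 348 and 104 CPM in Ctrl against 59.7 and 55.5 CPM in dKO, Elane 106 and 39.4 against 20.9 and 15.7 CPM, and Prtn3 49.7 and 12.8 against 8.25 and 10.4 CPM, none past the threshold. The whole list, with no marker at 0 in every library, did not follow that order: 4 of the 10 were highest in Ctrl 1, 2 in Ctrl 2 and 4 in dKO 2. Its summed level was 2144 and 2720 CPM for Ctrl and 1322 and 2163 CPM for dKO, so the groups overlapped. The 3 of 10 that were lower without overlap stand beside 19.9% of all tested genes. Of the 10 markers, 9 had a negative log2 fold change, against 48.4% of all tested genes, and the median was -0.42. Mki67, a marker of dividing cells named after its values were seen, had 104 and 95.6 CPM in Ctrl against 47.6 and 67.4 CPM in dKO, a log2 fold change of -0.80 (SE 0.21, edgeR adjusted p = 0.198). The part of these cells in the levels of Psat1, Shmt1 and Mthfd2 was not tested.

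Upstream, the eIF2 kinases gave no call among 9 genes with their regulators, and the median log2 fold change was 0.01, between -0.03 and 0.08 with 1 library left out. Eif2ak4, the amino acid sensor GCN2, had 24.2 and 23.8 CPM in Ctrl against 35.3 and 34.4 CPM in dKO, a log2 fold change of 0.54 (SE 0.20, edgeR adjusted p = 0.391). Impact, which binds the GCN2 activator and restrains it, had 66.0 and 55.3 CPM against 110.3 and 82.3 CPM (0.67, SE 0.20, edgeR adjusted p = 0.275). Eif2ak2, the RNA sensor PKR and an interferon-induced gene, had 28.0 and 50.2 CPM against 19.8 and 21.1 CPM (-0.94, SE 0.29, edgeR adjusted p = 0.284). The groups did not overlap for these 3. Of the 9 genes, 3 were higher and 2 lower in dKO without overlap, against 21.7% and 19.9% of all tested genes. Eif2ak1, the heme sensor, had the highest level of the kinases by TPM (62.7) and Eif2ak3, the ER sensor PERK, the lowest (2.55), and both overlapped between groups.

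None of 8 eIF2 and eIF2B subunits passed, with a median log2 fold change of -0.05, which was 0.02 without dKO replicate 2. Eif2b2 (0.37, SE 0.17, edgeR adjusted p = 0.502) and Eif2b5 (0.43, SE 0.22, edgeR adjusted p = 0.575), subunits of the exchange factor that phosphorylated eIF2 blocks, were higher in both dKO libraries. Of the 8 subunits, 2 were higher and 2 lower without overlap, against 21.7% and 19.9% of all tested genes. The gamma subunit of eIF2 is encoded on both sex chromosomes. The X-linked Eif2s3x had 404 and 267 CPM in Ctrl against 196 and 235 CPM in dKO (-0.64, SE 0.22, edgeR adjusted p = 0.332). The Y-linked Eif2s3y, named after its values were seen, had 0 counts in both Ctrl libraries against 1943 and 2670 in dKO. Summed over both genes the level was 404 and 267 CPM in Ctrl against 257 and 323 CPM in dKO, and the groups overlapped. Here the sex-linked difference and the genotype cannot be told apart.

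Partners and brakes of Atf4 gave no call among 12 tested genes of 13, with a median log2 fold change of -0.01, which was 0.18 without Ctrl replicate 2 and 0.21 without dKO replicate 1. Cebpd, a C/EBP factor, had 0 and 5 counts in Ctrl and 69 and 64 in dKO (edgeR adjusted p = 0.167). It passed with DESeq2 (adjusted p = 0.00268), without the count filter (edgeR adjusted p = 0.000720) and without Ctrl replicate 2 (edgeR adjusted p = 0.0241). Jdp2, a bZIP repressor, had 3.73 and 3.77 CPM in Ctrl against 6.19 and 6.32 CPM in dKO (edgeR adjusted p = 0.513). Ppp1r15b, the constitutive relative of Ppp1r15a, had 283 and 215 CPM in Ctrl against 233 and 187 CPM in dKO, and overlapped.

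Amino acid transporters held none that passed among 14 tested of 16, with a median log2 fold change of -0.15, which was -0.05 without Ctrl replicate 1 and also -0.05 without dKO replicate 2. Slc7a5, the light chain of the large neutral amino acid transporter, had 3.79 and 3.50 CPM in Ctrl against 2.40 and 2.18 CPM in dKO (edgeR adjusted p = 0.655). Slc7a7 (edgeR adjusted p = 0.614) and Slc38a2, a glutamine and alanine carrier that Atf4 induces (147.6 and 139 CPM in Ctrl, 127 and 133 CPM in dKO, edgeR adjusted p = 0.820), were also lower in both dKO libraries. Of the 14 transporters, 4 were lower and 1 higher without overlap, against 19.9% and 21.7% of all tested genes. The aminoacyl-tRNA synthetases known to be induced by Atf4 gave no call among 12. Of these, 11 had a negative log2 fold change, against 48.4% of all tested genes. Without overlap 9 were lower, against 19.9% of all tested genes. Aars alone had an unadjusted edgeR p under 0.05, where 5.34% of all tested genes were lower at that level. Ctrl 1 was the highest library for 9 of the 12, against 27.2% of all tested genes. The list median was -0.20, between -0.25 and -0.16 with 1 library left out. Aars had 237 and 245 CPM in Ctrl against 179 and 175 CPM in dKO (-0.44, SE 0.14, edgeR adjusted p = 0.312), Eprs -0.30 (SE 0.15, edgeR adjusted p = 0.556) and Iars -0.39 (SE 0.20, edgeR adjusted p = 0.581).

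**Figure D4:**
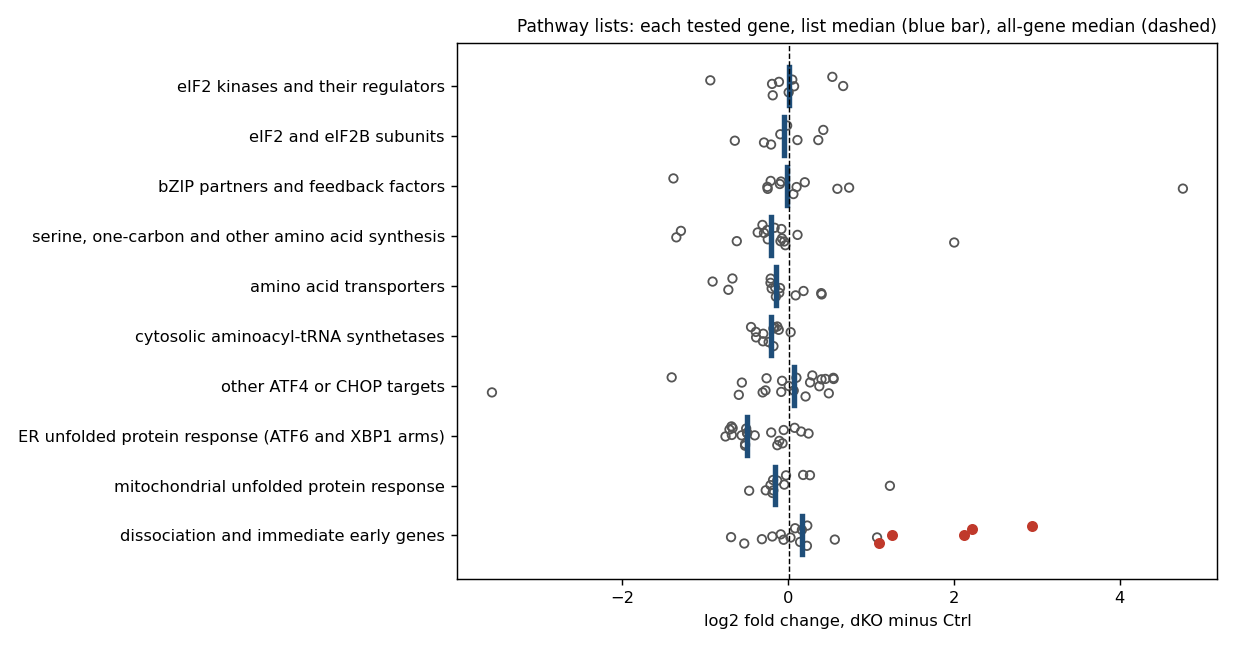
Log2 fold change (dKO minus Ctrl) of each tested gene in 10 pathway lists (circles; filled red where edgeR adjusted p is under 0.05), with the list median (blue bar) and the median of all tested genes (dashed line at 0.01). Only the dissociation and immediate early list holds called genes, 5 of 19, and the ER list has the lowest median, -0.49.

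Further Atf4 and CHOP targets gave no call among 21 tested of 24, with a median log2 fold change of 0.07, which was -0.07 without Ctrl replicate 1. Pmaip1, which encodes the death-promoting BH3 protein Noxa, had 10.8 and 9.55 CPM in Ctrl against 3.52 and 4.20 CPM in dKO (-1.40, SE 0.32, edgeR adjusted p = 0.135), and passed with DESeq2 (adjusted p = 0.0176) and without the count filter (edgeR adjusted p = 0.0127). Txnip, a brake on glucose uptake, had 802 and 1091 CPM in Ctrl against 1392 and 1274 CPM in dKO (0.49, SE 0.18, edgeR adjusted p = 0.391). Stc2 had 56 and 35 counts in Ctrl and 7 and 0 in dKO (edgeR adjusted p = 0.389). The mitochondrial unfolded protein response, which in mammals signals through the same kinases, gave no call among 12, with a median of -0.15 that was 0.0043 without Ctrl replicate 1 and -0.06 without dKO replicate 2. Lonp1, a mitochondrial protease gene, had 4.96 and 4.58 CPM in Ctrl against 11.5 and 10.9 CPM in dKO (edgeR adjusted p = 0.156). The chaperone genes Hspd1 (-0.47, SE 0.20, edgeR adjusted p = 0.463) and Hspa9 (-0.27, SE 0.18, edgeR adjusted p = 0.686) were lower in both dKO libraries. Of the 12 mitochondrial genes, 3 were lower and 1 higher without overlap, against 19.9% and 21.7% of all tested genes.

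The neighbouring ER stress arms, run by Xbp1 and Atf6 rather than by eIF2, had mostly negative fold changes, although none of the 20 genes passed. Of these, 17 had a negative log2 fold change, against 48.4% of all tested genes, and the median was -0.49. An unadjusted p under 0.05 was reached by 9, all lower, where 5.34% of all tested genes were lower at that level. Both dKO libraries were below both Ctrl libraries for 10 of the 20 and above them for none, where 19.9% of all tested genes were lower and 21.7% higher without overlap. Xbp1, the factor of the IRE1 arm, had 305 and 215 CPM in Ctrl against 160 and 149 CPM in dKO, a log2 fold change of -0.75 (SE 0.19, edgeR adjusted p = 0.192). Pdia3, a disulfide isomerase, had 2277 and 1608 CPM against 1223 and 1202 CPM (-0.68, SE 0.19, edgeR adjusted p = 0.225). The chaperone Canx had 733 and 636 CPM against 500.1 and 474 CPM (-0.49, SE 0.15, edgeR adjusted p = 0.275).

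Ctrl 1 was the highest library for 14 of these 20 ER genes, against 27.2% of all tested genes. Without Ctrl replicate 1 the list median was -0.22, and without Ctrl replicate 2 it was -0.66. Xbp1 and the ER chaperones are most abundant in secretory cells. Of 6 plasma cell markers, 5 were tested and 4 of these were lower in both dKO libraries, against 19.9% of all tested genes. The tested markers did not follow the library order of the ER genes: 1 was highest in Ctrl 1, 3 in Ctrl 2 and 1 in dKO 1. The transcription factor Irf4 had 15.4 and 12.9 CPM in Ctrl against 2.71 and 4.40 CPM in dKO (edgeR adjusted p = 0.0564) and Sdc1 3.52 and 5.30 against 0.840 and 1.19 CPM (edgeR adjusted p = 0.151). Jchain was higher in dKO, at 24.1 and 18.9 CPM against 2.09 and 8.68 CPM in Ctrl (edgeR adjusted p = 0.234), and Tnfrsf17 was at most 0.147 CPM. The summed level of the 6 was 153 and 182 CPM in Ctrl against 141 and 105 CPM in dKO. The part of these cells in the ER values was not tested.

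**Figure D5:**
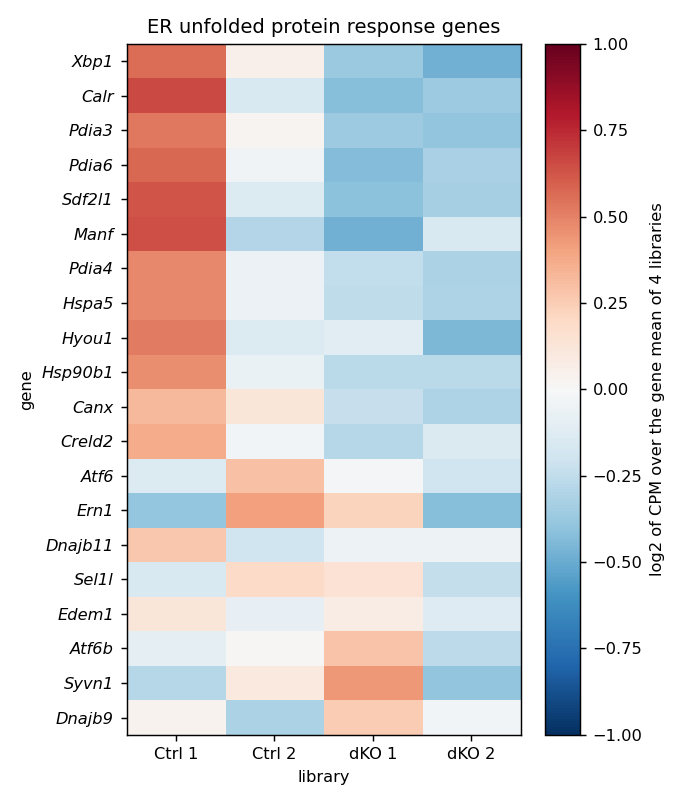
Level of 20 ER unfolded protein response genes (rows, from the most negative fold change at the top) in the 4 libraries, as log2 of CPM over the gene's mean. Ctrl 1 is the highest library for 14 of the 20 genes (27.2% of all tested genes), and the upper rows are lowest in the dKO libraries.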

How the data were processed

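Per the submitters' processing notes, the tools were HTSeq 0.6.1, RSEM 1.3.0, TopHat2 2.1.1, Trimmomatic 0.36, FastQC 0.11.5 and DESeq2 1.32.0, and the build was mm9. Their parameters and strand setting: not given in the sources used here. Libraries followed Smart-seq2, per the labels' protocols. For each library the authors deposited gene counts in whole numbers and, per the file headers, RSEM expected counts, TPM, FPKM and lengths. The median ratio of whole-number to expected count was 2.05 to 2.07 per library, so the counts exceed the number of fragments that RSEM assigned. Reads given to no gene (18.1% and 21.5% in Ctrl, 23.8% and 24.3% in dKO) or to several (2.20% to 2.34%) stayed out of library sizes.

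Counts were tested with edgeR 4.0.16 (quasi-likelihood, robust, TMM scaling, minimum count 10) in R 4.3.3 with Benjamini-Hochberg adjustment over 13904 genes. SE is the log2 fold change over the square root of F, and the 95% interval uses the fit's degrees of freedom. CPM uses TMM library sizes. TPM entered no test, and FPKM was not used. An exact two-sided permutation of 2 against 2 libraries cannot go below 0.333, and the p-values here lean on a spread estimated over many genes. The series' design text calls the libraries of a group biological replicates, without naming the animals behind each.

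The 10 genes, the lists and the naming rule (up to 6 called genes per list, otherwise the 3 with the smallest p) were chosen with earlier results of these data known. Lists are described by counts and medians, with no set test. Positions are GENCODE M21 (GRCm38), matched by Ensembl identifier, and not the build of the counts. Alternatives were other scalings and filters, DESeq2 1.42.0, limma-voom 3.58.1, a fit that is not robust, rounded expected counts, the replicate number as a block and leaving out each library.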

Additional observations from a re-analysis of the deposited data

How the results depend on the processing

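Over 13 alternatives, Trib3, Sesn2, Asns and Phgdh kept their sign and passed in none (12 alternatives for Trib3, which the stricter filter removed). Ppp1r15a passed with a log2 fold change of 0.90 without the count filter, 0.91 with the stricter filter and 0.90 with DESeq2, and Psat1 with -1.06 without the filter and -1.06 with DESeq2. Leaving out 1 library gave -0.12 to 0.77 for Atf4, -1.26 to 0.46 for Atf5, -0.024 to 0.076 for Ddit3, 0.70 to 1.09 for Ppp1r15a and -1.43 to -0.57 for Psat1. Of the 10 genes, 2 passed without the filter, 1 with the stricter filter, 2 with DESeq2 and 0 to 1 with a library left out. Of all genes, 559, 134, 395 and 73 to 187 passed in the same order. Without the count filter 2.4% of all genes passed. Called genes then numbered 2 of 9 eIF2 kinases and regulators, 1 of 8 eIF2 and eIF2B subunits and 1 of 13 bZIP partners. They also numbered 2 of 20 serine and one-carbon genes, 1 of 22 other Atf4 targets, 5 of 20 ER genes and 1 of 12 mitochondrial stress genes. With DESeq2, where 2.84% of all genes passed, they numbered 1 of 12 bZIP partners and 2 of 16 serine and one-carbon genes. The other DESeq2 calls were 1 of 21 other Atf4 targets, 2 of 20 ER genes and 1 of 12 mitochondrial stress genes. With a library left out the ranges were 0 to 1 for bZIP partners, 0 to 3 for serine and one-carbon genes, 0 to 5 for ER genes and 2 to 4 for immediate early genes. The cause of these differences was not tested. TGATGCA in place of TGATGNAA matched a promoter of 1 of the 10 genes in place of 3.

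No pairing of same-numbered libraries is stated in the sources used here. Deviations of same-numbered libraries correlated with r = -0.05 across genes. From 2 libraries a group, this value cannot decide whether they were paired. With the replicate number as a block, Ppp1r15a had 0.90 (edgeR adjusted p = 0.163) and Psat1 -1.03 (edgeR adjusted p = 0.356), and 0 of the 10 genes passed. With 2 libraries a group, Atf5, Trib3 and Chac1 were too low for any but very large differences to be detected.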

Other observations

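The remaining cell type lists gave the following values, and those for T cells and NK cells add to the levels of Cd3e and of the summed NK markers given above. Of 11 T cell markers, 2 fell (Cd3e and Trac) and 9 did not pass, with a median log2 fold change of -1.50. Of all tested genes 0.295% fell. Trac went from 58.2 and 73.2 CPM in Ctrl to 14.3 and 20.8 CPM in dKO (edgeR adjusted p = 0.0207). Of the 11 T cell markers, 9 were lower and 0 higher without overlap, against 19.9% and 21.7% of all tested genes. None of 9 B cell markers passed (edgeR, median -0.71). Igll1, a surrogate light chain gene of B cell precursors, had 5.46 and 2.50 CPM in Ctrl against 0.778 and 0.496 CPM in dKO (edgeR adjusted p = 0.145). None of 10 monocyte, macrophage and dendritic cell markers passed (edgeR, median -0.04), and 5 had a negative and 5 a positive log2 fold change. Their summed level was 1820 and 1965 CPM in Ctrl against 1498 and 1997 CPM in dKO, with overlap. The marker Ly6c2 had 347 and 349 CPM in Ctrl against 104 and 187 CPM in dKO (edgeR adjusted p = 0.0994). None of 8 erythroid markers (median -0.18), of 6 mast cell and basophil markers (median 0.49) or of 12 NK markers (median -0.23) passed in edgeR. Of the 12 NK markers, 7 were lower and 0 higher without overlap, against 19.9% and 21.7% of all tested genes.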
